A study of Homo sapiens with 22 samples.

Results

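H2A.X KO and WT HUDEP-2 cells were compared at D0, before the change of medium that starts maturation, across all genes measured by RNA-Seq. HUDEP-2 cells are human erythroid progenitors that were immortalized, and at D0 they grow in expansion medium with SCF, EPO, dexamethasone and doxycycline. The comparison takes 5 of the 22 libraries of the series: 3 H2A.X KO libraries, whose column names all carry the word Redo, and 2 H2A.X WT libraries, whose names do not. The KO lines were made with paired CRISPR guides, 1 upstream of the start codon and 1 downstream of the stop codon of the gene for histone H2A.X, delivered on lentiviral vectors with GFP and mCherry, and were sorted and grown from single cells. A KO line made in this way is 1 clone. The study speaks of WT and KO subclones and of cell cultures, and the labels number the replicates of a group without tying a library to a subclone, so p values measure the spread between these libraries, which may be technical. The D6 libraries of the same experiment (2 WT and 3 KO) share the estimate of this spread, and the BAZ1B experiment, with 3 WT and 3 BAZ1B KO libraries at each day in a table of its own, gives levels in other WT cells of the same line.

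H2A.X is a variant of the core histone H2A that cells place throughout their chromatin. At a DNA break the kinases ATM, ATR and DNA-PK phosphorylate its tail, and the phosphorylated form, γ-H2A.X, is bound by MDC1, which brings in repair factors. In red cell precursors the nucleus condenses and transcription narrows to the products of the mature cell. The study states that HUDEP-2 cells in expansion appear to resemble basophilic erythroblasts, a stage at which it places the start of condensation.

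Total counts were 15679680 and 16171864 in the WT libraries and 18379174 to 18976911 in the KO libraries, and 13236 genes passed the filter on low counts. No pair of replicates agreed within sampling noise. The targeted gene, listed as H2AFX (1592 bases, chromosome 11, 119093874 to 119095465 in GRCh38), had normalized counts of 1575 and 1969 in WT and 333, 787 and 759.9 in KO. All KO libraries lay below both WT libraries, and none reached 0 (log2 fold change -1.499, SE 0.46, adjusted p = 0.0304 in edgeR's quasi-likelihood test, adjusted by Benjamini-Hochberg over all genes tested). The call was lost without WT replicate 1 or 2, at log2 fold changes of -1.65 and -1.33, and without KO replicate 1 or 3, at -1.20 and -1.66. After the correction for length and GC content described below, the log2 fold change was -0.69 and was not called. The study places the guides upstream of the start codon and downstream of the stop codon. Whether parts of the gene beyond them gave the reads seen in KO was not tested. Erythroid markers were present in every library, at a summed 23497 to 26679 CPM (counts scaled by the total of each library) in WT and 13447 to 17370 in KO, and none of the 8 markers was at 0. In bulk samples such as these, fewer cells of a type and less RNA per cell cannot be told apart.

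At an adjusted p below 0.05, which is the meaning of called, risen or fallen throughout, 2434 genes (18.4% of those tested) rose and 2217 (16.7%) fell in KO. All 3 KO libraries lay above both WT libraries in 4784 genes (36.1%) and below both in 4519 (34.1%). WT replicate 2 decided most calls, and the KO libraries weighed as well. Without it edgeR called 51 genes higher and 26 lower, with 3558 genes at an unadjusted p below 0.05 and the lone WT library assumed to vary like the other groups, whereas without WT replicate 1 it called 2092 and 2150. Without KO replicate 1, 2 or 3 it called 1481, 1649 or 1563 higher and 1069, 1275 or 1151 lower. All 2434 risen and all 2217 fallen genes kept their sign without WT replicate 2, and 1806 and 1378 of them had an unadjusted p below 0.05. Their median log2 fold changes moved from 1.14 to 0.95 and from -0.89 to -0.63. Values without WT replicate 2 therefore stand beside the gene groups described here.

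The direction of the difference followed transcript length. Among 12017 genes with an annotated transcript, Spearman's rho between the log2 fold change and the length of the transcript was 0.545, and with GC content it was -0.251, across genes, which are not independent replicates. At fixed GC content the partial rho with length was 0.509, and at fixed length that with GC content was -0.108. Of 823 genes with transcripts of over 500 to 1000 bases, 48.6% fell and 3.16% rose, with a median log2 fold change of -0.81. Of 917 genes with transcripts over 8000 bases, 58.3% rose and 3.38% fell, with a median of 1.04. Coding length (rho 0.503) and untranslated length (rho 0.411) of protein coding genes both went with the fold change. With the genes divided into 4 equal groups by expression, rho was 0.380 in the least expressed group and 0.579, 0.693 and 0.694 in the others.

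**Figure D1:**
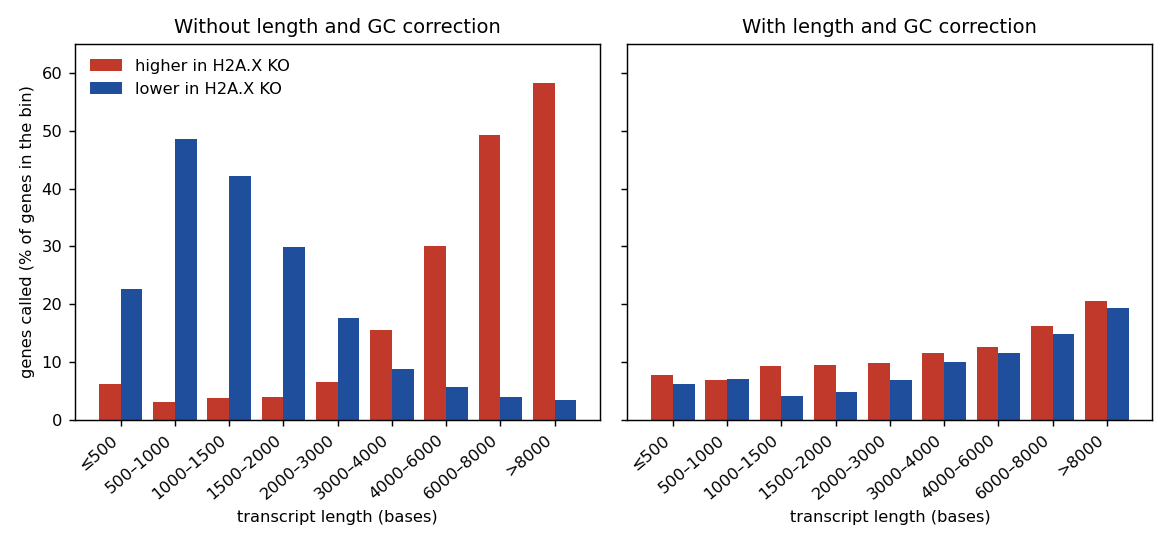
Share of genes called higher (red) and lower (blue) in H2A.X KO at D0, in percent of the genes in each bin of transcript length in bases, without (left) and with (right) correction for length and GC content. Without correction the lower share falls from 48.6% at 500 to 1000 bases to 3.38% over 8000 bases while the higher share climbs to 58.3%, and after correction both shares stay between 4.21% and 20.5%.

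Both groups were then set against the WT libraries of the BAZ1B experiment at D0, with the counts of both experiments normalized together. The H2A.X WT libraries carried the length trend, and the KO libraries did not. Relative to the mean of the 3 BAZ1B experiment WT libraries, levels declined with transcript length in H2A.X WT replicates 1 and 2 (rho -0.430 and -0.516), while the KO libraries had a rho of 0.00766, -0.0897 and -0.0480. In the bin of 500 to 1000 bases the median log2 ratio was 0.53 and 1.02 in the WT libraries and -0.03, 0.06 and 0.06 in KO. In transcripts over 8000 bases it was -0.88 and -1.35 in WT and -0.04, -0.14 and -0.12 in KO. At both ends WT replicate 2 lay farther out than WT replicate 1, and the WT libraries also differed from each other along length (rho 0.461 for replicate 1 minus replicate 2). All 12 BAZ1B experiment libraries stayed within a rho of -0.0994 to 0.0678. Of the genes called higher in H2A.X KO, 87.6% had a mean BAZ1B experiment WT level closer to KO than to H2A.X WT, and of those called lower 85.4%, against 72.9% of all genes tested. The labels name no batch within this experiment, so a batch and the genotype cannot be told apart as the source of the trend.

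**Figure D2:**
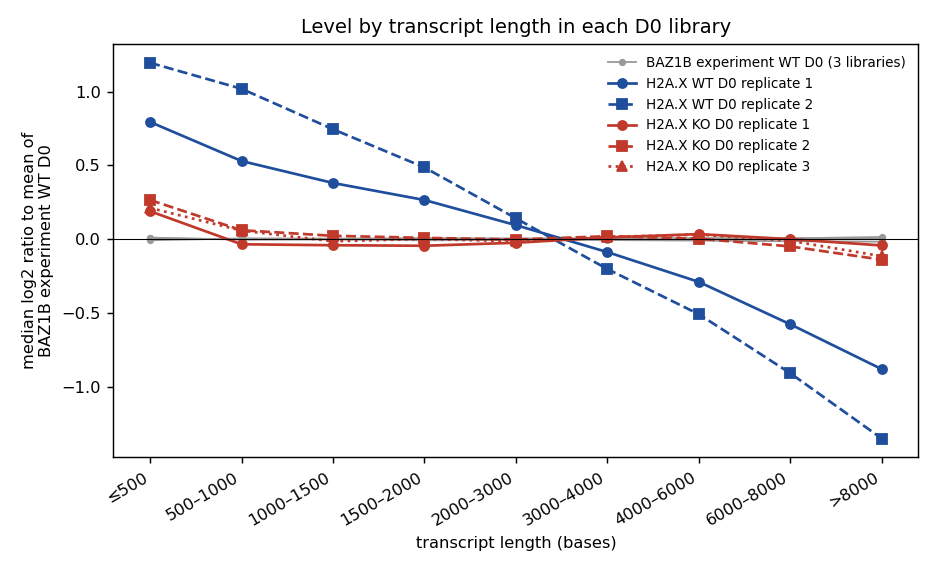
Median log2 ratio of each D0 library to the mean of the BAZ1B experiment's WT D0 libraries (vertical axis) by bin of transcript length in bases (horizontal axis), for H2A.X WT (blue), H2A.X KO (red) and the 3 reference libraries themselves (gray). The WT lines run from 0.79 and 1.20 in the shortest bin to -0.88 and -1.35 in the longest, and the KO lines stay between -0.14 and 0.27.

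A fit that removed a smooth trend of length and GC content from each library was run on the 12017 annotated genes, after which rho with length was 0.0146. It called 1416 genes higher (11.8%) and 1148 lower (9.55%). Of the annotated genes called before, 1153 of 2363 were again higher and 695 of 2073 again lower, and 10 higher ones were lower after correction. Without WT replicate 2 this fit called 43 higher and 24 lower, with 2439 genes at an unadjusted p below 0.05, and without WT replicate 1 it called 997 and 1075. Corrected values come from this fit.

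The Redo mark could be looked at only at D6, where KO replicates 1 and 2 carry it and replicate 3 does not. There the marked libraries differed from the unmarked one in 276 genes, 170 higher (1.28% of those tested) and 106 lower (0.801%), with the lone library assumed to vary like the others. Along transcript length the difference of marked minus unmarked D6 KO libraries had a rho of 0.334, whereas the same split of the D0 libraries, where all 3 are marked, had a rho of 0.0422. The unmarked library lay between the WT and the marked KO libraries: relative to the BAZ1B experiment WT cells its rho with length was -0.208, against 0.0347 and -0.0113 in the marked ones and -0.468 and -0.492 in WT at D6. Genes that rose in KO at D0 were higher in the marked D6 libraries by a median of 0.33 (0.04 for the same replicates at D0), and genes that fell were lower by 0.22 (median -0.22, and -0.04 at D0). Of the 170 genes higher with the mark, 61 (35.9%) were among the 2434 that rose at D0 (2.51% of these), and of the 106 lower ones 23 (21.7%) were among the 2217 that fell (1.04%). Over all genes tested 18.4% rose and 16.7% fell at D0, to be read beside the 35.9% and 21.7%. Replicate 3 is the only unmarked KO library, so the mark and that replicate cannot be told apart. At D0 every KO library carries the mark and no WT library does, so mark and genotype cannot be told apart either.

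A DEG was taken here as a gene with an adjusted p below 0.001 and a log2 fold change of more than 1.5 in either direction. The study's methods put the DEG cutoff on a p value without saying whether it was adjusted. By the adjusted p, 19 genes (0.144%) were higher and 3 (0.0227%) lower in KO, while the same fit with the cutoff on the unadjusted p gave 426 and 88. With DESeq2, the study's tool, 532 were higher and 98 lower at the adjusted cutoffs, and with a replicate block in edgeR 124 and 44. All 22 were again called, at an adjusted p below 0.05, when any 1 library was left out. The number that met the stricter DEG cutoffs moved more, to 2 higher genes without WT replicate 1 or 2 or KO replicate 2, 4 without KO replicate 1, 3 without KO replicate 3, 6 without either D6 WT library and 44 without D6 KO replicate 3, and to 0 to 5 lower genes. The smallest p belonged to RAB4A (chromosome 1, 229271062 to 229305894), a GTPase of early endosome recycling. Its normalized counts were 9.10 and 10.8 in WT and 810.0, 687 and 744 in KO. KO was 74.7-fold higher (log2 fold change 6.22, SE 0.22, adjusted p = 6.53e-07, 6.34 without WT replicate 2). UBE2C, the ubiquitin-conjugating enzyme that works with the anaphase promoting complex, had counts of 14.2 and 4.79 in WT and 506, 393 and 329 in KO (log2 fold change 5.38, SE 0.51, adjusted p = 0.000672). CTSS, a cathepsin that cleaves the invariant chain of MHC class II, had 5.05 and 9.57 in WT and 577, 419 and 325 in KO (log2 fold change 5.91, SE 0.60, adjusted p = 0.000906). In each of them the WT libraries held a trace and the KO libraries far more.

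CARD6, a protein with a caspase recruitment domain, had 21.2 and 17.9 in WT and 523, 391 and 360.2 in KO (log2 fold change 4.43, SE 0.31, adjusted p = 0.000163). PFKFB2, which sets the level of fructose 2,6-bisphosphate and with it the pace of glycolysis, had 5.05 and 2.39 in WT and 234, 155 and 211 in KO (log2 fold change 5.67, SE 0.46, adjusted p = 0.000369). PRRG4, a membrane protein with a Gla domain, had 7.08 and 10.8 in WT and 147, 183 and 193 in KO (log2 fold change 4.28, SE 0.34, adjusted p = 0.000369). The genes differed in how far the KO libraries spread, and KO replicate 1 was the highest of the 3 in CARD6 and PFKFB2 and the lowest in PRRG4. UNC13B, known for priming vesicles for release, had 0 and 1.20 in WT and 410.1, 494 and 326 in KO, a ratio of 746 with a counting interval of 134 to 29491. KIAA1211L had 1.01 and 0 in WT and 205, 109.9 and 167 in KO, a ratio of 294 with a counting interval of 52.5 to 11630.3. Both intervals are 95% binomial intervals that cover counting error only, since each WT group held 1 read in all. Without WT replicate 2 the log2 fold changes of UBE2C, CTSS, CARD6, PFKFB2 and PRRG4 were 4.84, 6.41, 4.31, 5.27 and 4.60.

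Among the DEGs, 3 genes on chromosome 19 encode zinc finger proteins. ZNF569 had no read in WT and 105, 100.4 and 80.6 normalized counts in KO, at least 28.8-fold higher against a floor of 3 reads per library. ZNF607 had 6.07 and 4.79 in WT and 69.3, 98.7 and 88.8 in KO (log2 fold change 3.94, SE 0.39, adjusted p = 0.000886), and ZNF845 had 77.8 and 96.9 in WT and 410.1, 378 and 347 in KO (log2 fold change 2.12, SE 0.21, adjusted p = 0.000886). SMAD1, a signal transducer of BMP receptors, SLFN13 and MAGED1 had no read or next to none in WT. The other 5 higher DEGs had log2 fold changes of 2.05 to 2.36. PLTP, a transfer protein for phospholipids, had 335 and 276 in WT and 1275, 1236 and 1286 in KO (log2 fold change 2.05, SE 0.19, adjusted p = 0.000619). LMBRD2 had 2047 and 1711 in WT and 8167, 7795 and 7605 in KO (log2 fold change 2.06, SE 0.21, adjusted p = 0.000886). STS, steroid sulfatase, had 119 and 119.6 in WT and 758, 628 and 453 in KO (log2 fold change 2.36, SE 0.24, adjusted p = 0.000906). ICK, a kinase of cilia, rose by 2.23 on the log2 scale and ATP9A, a phospholipid flippase, by 2.05. In all of these genes the WT libraries lay close together and the KO libraries stood above both. Without WT replicate 2 the log2 fold changes of ZNF607, ZNF845, PLTP, LMBRD2, STS, ICK and ATP9A were 3.79, 2.28, 1.92, 1.94, 2.36, 2.14 and 1.91. After correction 15 genes (0.125%) were higher DEGs and 3 (0.025%) lower.

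**Figure D3:**
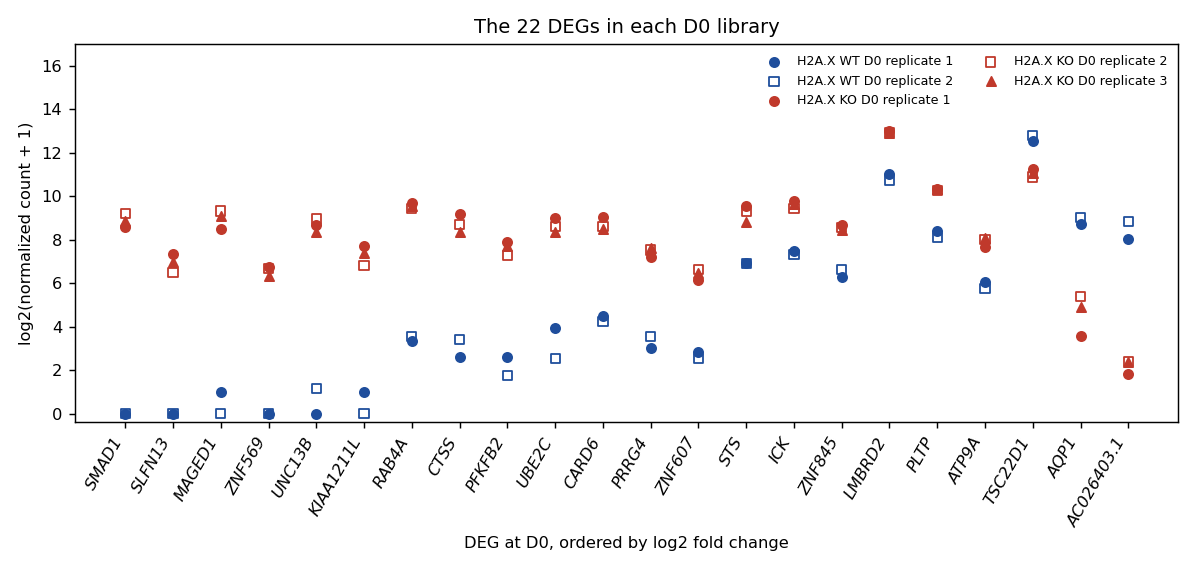
Normalized counts of the 22 DEGs at D0 on a log2 scale after adding 1 (vertical axis), for each WT library (blue) and KO library (red), with genes ordered by log2 fold change (horizontal axis). In each gene the 3 KO points lie on 1 side of both WT points, and 6 of the 19 higher genes have WT libraries at 0 to 1.20 normalized counts.

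The other WT cells did not share the low WT level of many of these genes. In the BAZ1B experiment's 3 WT libraries at D0, RAB4A stood at 47.6 to 50.3 CPM, against 0.557 and 0.574 in H2A.X WT and 43.5 to 51.9 in H2A.X KO. UBE2C stood at 31.2 to 34.1 CPM there, against 0.255 and 0.866 in H2A.X WT and 21.1 to 32.4 in KO. CTSS stood at 32.01 to 35.7 CPM, against 0.309 and 0.510 and 20.8 to 36.9. SMAD1, SLFN13 and MAGED1, at 0 to 0.0618 CPM in H2A.X WT, stood at 36.8 to 37.7, 14.3 to 16.4 and 41.7 to 47.5 CPM in the WT cells of the other experiment. For 13 of the 19 higher DEGs and 2 of the 3 lower ones the level in those cells was closer to H2A.X KO than to H2A.X WT. The reverse held for PFKFB2 (0.101 to 0.339 CPM), UNC13B (0.127 to 0.194), ZNF569 (0.0242 to 0.176), KIAA1211L (0 in all 3), ZNF607 (0.848 to 1.19) and ATP9A (2.695 to 3.09), which were low in the WT cells of both experiments and high in H2A.X KO. Among the BAZ1B KO libraries at D0, UNC13B ranged from 0.591 to 19.9 CPM and PFKFB2 from 0 to 7.87. KIAA1211L, ZNF569, ZNF607 and ATP9A reached 0.704, 0.0602, 0.816 and 3.15 CPM there at most. PRRG4 and SLFN13, at 0.0563 to 3.50 and 0.197 to 0.395 CPM there, lay below the WT cells of that experiment. The lower DEGs were AQP1, a water channel, TSC22D1, a transcription regulator, and AC026403.1, at log2 fold changes of -4.14, -1.596 and -6.57. AQP1 stood at 1.55 to 1.65 CPM and TSC22D1 at 116 to 119 in the other WT cells, near H2A.X KO (0.704 to 2.56 and 119.9 to 154).

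Since only 3 lower genes met the DEG cutoffs, further lower genes were named by size of change. LIN28B, an RNA-binding protein known for blocking let-7 maturation in fetal progenitors, had normalized counts of 936 and 765 in WT and 53.3, 12.02 and 2.47 in KO (log2 fold change -5.23, SE 0.95, adjusted p = 0.0067). Its KO libraries differed among themselves more than the WT ones did, with KO replicate 1 the highest. TSPAN5, a tetraspanin, had 146 and 148 in WT and 3.38, 24.0 and 13.2 in KO (log2 fold change -3.43, SE 0.71, adjusted p = 0.00883). FOXH1, a partner of SMAD proteins in transcription, had 359 and 404 in WT and 10.1, 67.8 and 19.7 in KO (log2 fold change -3.55, SE 0.88, adjusted p = 0.0142), with KO replicate 2 above the other KO libraries, and did not pass without KO replicate 3 (-3.29). C17orf99 had 98.1 and 146 in WT and 0, 19.7 and 10.7 in KO (log2 fold change -3.57, SE 0.76, adjusted p = 0.00956). AC079466.1 and AC100835.2, genes known only by a clone name, had log2 fold changes of -4.62 and -5.66. Without WT replicate 2 the values of LIN28B, TSPAN5, FOXH1, C17orf99, AC079466.1 and AC100835.2 were -5.37, -3.42, -3.46, -3.26, -5.02 and -5.33, and of these AC079466.1 and AC100835.2 were still called. In the WT cells of the BAZ1B experiment LIN28B stood at 30.04 to 32.6 CPM, near H2A.X WT (40.8 and 57.3), whereas TSPAN5 (0.254 to 0.509), FOXH1 (1.62 to 1.87) and C17orf99 (0.736 to 0.848) stood near H2A.X KO. AC079466.1 stood at 317 to 339 CPM in those WT cells, above both H2A.X WT (28.9 and 64.4) and H2A.X KO (0.487 to 2.99). AC100835.2 stood at 0.0485 to 0.202 CPM there, near H2A.X KO (0.158 to 0.490). Among the BAZ1B KO libraries at D0 LIN28B ranged from 4.29 to 36.2 CPM and AC079466.1 from 4.74 to 797.

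Without regard to size, 51 genes were called higher and 26 lower with all libraries and with each of the 10 libraries of the experiment left out in turn, and 50 and 19 of them also after correction. The corrected fit held annotated genes only, so genes without an annotated transcript could not be called in it. The genes called with each library left out include the 22 DEGs, and the further ones named here were chosen after their values were seen. Cell cycle regulators were among the lower ones. E2F1, a transcription factor for S phase genes, had 1651 and 1503 in WT and 879, 768 and 826 in KO (log2 fold change -0.94, SE 0.14, adjusted p = 0.00393), and CCND2, cyclin D2, had 2236 and 2846 in WT and 877, 981 and 856 in KO (log2 fold change -1.49, SE 0.16, adjusted p = 0.00122). PHOSPHO1, a phosphatase that acts on phosphocholine, had 1128 and 1153 in WT and 129, 257 and 275 in KO (log2 fold change -2.37, SE 0.28, adjusted p = 0.00189). Among the higher ones, CEP55, which acts in the last step of cytokinesis, had 179.9 and 193 in WT and 807, 634 and 562 in KO (log2 fold change 1.84, SE 0.21, adjusted p = 0.00171), and CREB3L2, a transcription factor of the secretory pathway, had 519.6 and 365 in WT and 2625, 1889 and 2136 in KO (log2 fold change 2.32, SE 0.26, adjusted p = 0.00151). PDGFC, a growth factor, had 0 and 1.20 in WT and 77.8, 159 and 183 in KO, a ratio of 256 with a counting interval of 45.7 to 10134, again for counting error only. KO and WT libraries did not overlap in any of them.

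Gene lists were then read by their counts and medians, without a test of the list, beside 18.4% of all tested genes risen and 16.7% fallen. Counts after correction stand beside 11.8% of all annotated genes risen and 9.55% fallen. The fit without WT replicate 2 tested 13978 genes. Its total at an unadjusted p below 0.05, given above, covers both directions together. List counts at that cutoff therefore describe members only and are not read as a result about a list. Most genes of the cytoplasmic ribosome fell. Of 83 ribosomal protein genes 78 fell and the other 5 did not pass, the median log2 fold change being -0.95. The KO libraries stood at -1.01, -0.86 and -0.90 against the WT mean. RPLP1, a protein of the ribosomal stalk, had 33137 and 55051 in WT and 16884, 19530.3 and 18303 in KO (log2 fold change -1.27, SE 0.24, adjusted p = 0.00756). RPL22, a protein of the large subunit, had 3029.8 and 4447 in WT and 2059, 2039.7 and 1962 in KO (log2 fold change -0.89, SE 0.17, adjusted p = 0.00793). WT replicate 1 lay between WT replicate 2 and the KO libraries in both. Their transcripts are short (list median 869 bases), and after correction 28 of 83 fell, with a median of -0.39. With WT replicate 2 left out, edgeR called none of 84, 63 of which were lower at an unadjusted p below 0.05, and the median was -0.57. In H2A.X WT the list stood 0.85 above the BAZ1B experiment WT level in median log2, and in KO at 0.00. Small nucleolar RNA host genes, which carry the guide RNAs for ribosomal RNA modification in their introns and often begin with the pyrimidine tract that ribosomal protein mRNAs have, fell in 18 of 27 genes and rose in 1, with a median of -1.30. SNHG16 had 2523 and 4542 in WT and 937, 1179 and 1039 in KO (log2 fold change -1.75, SE 0.28, adjusted p = 0.00491), while SNHG14 rose by 1.48. Against the BAZ1B experiment WT level the host genes stood at 1.03 in median log2 in H2A.X WT and at -0.07 in KO. After correction 10 of these host genes fell (median -0.75), and without WT replicate 2 17 were lower at an unadjusted p below 0.05 and none was called (median -1.14). Of 35 aminoacyl-tRNA synthetases, 4 fell and 2 rose, and after correction none was called at an adjusted p below 0.05.

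Nuclear genes for mitochondrial proteins also fell. Of 76 mitochondrial ribosomal protein genes 51 fell (median -0.72), of 46 genes for complex I 39 (median -1.0003), of 43 for the other respiratory complexes 34 (median -0.97) and of 28 for protein import 18 (median -0.74), and the others did not pass. Against the BAZ1B experiment WT level these lists stood at 0.69, 0.93, 0.92 and 0.42 in median log2 in H2A.X WT. In KO they stood at -0.01, 0.10, 0.07 and -0.22. ATP5IF1, the inhibitor of the ATP synthase, had 4746 and 7999.8 in WT and 1572, 1839 and 1859 in KO (log2 fold change -1.86, SE 0.27, adjusted p = 0.00377). NDUFA11, a membrane subunit of complex I, had 899 and 1511 in WT and 372, 404 and 409.5 in KO (log2 fold change -1.61, SE 0.27, adjusted p = 0.00555). TIMM17B, a subunit of the inner membrane translocase, had 611 and 989.5 in WT and 295, 288 and 300.2 in KO (log2 fold change -1.44, SE 0.21, adjusted p = 0.00387), and MRPL55 fell by 1.29 on the log2 scale. In these genes WT replicate 2 was the highest library and the KO libraries lay close together. After correction 19, 16, 13 and 9 of the members fell, with medians of -0.22, -0.45, -0.35 and -0.34. When WT replicate 2 was left out, edgeR called no member, 24, 25, 23 and 12 were lower at an unadjusted p below 0.05, and the medians were -0.41, -0.58, -0.56 and -0.47. The log2 fold changes of ATP5IF1, NDUFA11, TIMM17B and MRPL55 were then -1.43, -1.18, -1.05 and -1.03.

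Of 13 transcripts of the mitochondrial genome itself 3 rose and the others did not pass (median 0.59). MT-ND5, the longest of the complex I subunits it encodes, had 13002 and 2674 in WT and 39468, 43221 and 43440.4 in KO (log2 fold change 2.42, SE 0.59, adjusted p = 0.0132), and MT-ND4L had 2294 and 291 in WT and 7985, 8029.8 and 7693 in KO (log2 fold change 2.61, SE 0.67, adjusted p = 0.0162). WT replicate 2 was far below WT replicate 1 in both, and the WT libraries differed from each other more than WT replicate 1 differed from KO. With the omission of WT replicate 2, the median of the 13 transcripts was 0.08 and edgeR called none, with 3 higher and 1 lower at an unadjusted p below 0.05. With the omission of WT replicate 1 instead, 9 rose and the median was 1.40. After correction the same number, 3, rose, with a median of 1.07. The levels in the WT cells of the BAZ1B experiment, 2843 to 3700.1 CPM for MT-ND5, were nearer to KO (2528 to 2784) than to H2A.X WT (143 and 795). Since most of these transcripts lie next to others on polycistronic RNA, reads can be shared near their ends.

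The proteasome degrades ubiquitinated proteins. Of 37 subunit genes 23 fell and 3 rose, with a median of -0.68 (7 and 4 after correction, median -0.25). PSMD9, an assembly chaperone of the regulatory particle, had 377 and 473 in WT and 189, 203 and 204 in KO (log2 fold change -1.09, SE 0.17, adjusted p = 0.0049), and PSMB4 of the core particle fell by 1.01 and did not pass after correction (-0.26). PSMB8 and PSMB9, inducible catalytic subunits of the immunoproteasome, were among the risen ones. PSMB9 had 4.04 and 5.98 in WT and 122.6, 88.4 and 40.3 in KO (log2 fold change 4.04, SE 0.68, adjusted p = 0.00555), and PSMB8 had 59.6 and 58.6 in WT and 276, 212 and 159.5 in KO (log2 fold change 1.87, SE 0.41, adjusted p = 0.0103). KO replicate 1 was highest and KO replicate 3 lowest in both. The list of MHC class I and II genes also holds PSMB9, so it is not independent of the proteasome list. It had 6 of 11 members called as risen and the others not past the test (median 1.24, 8 risen after correction). Against the BAZ1B experiment WT level the proteasome list stood at 0.61 in median log2 in H2A.X WT and at -0.06 in KO. The MHC list stood at -1.75 in H2A.X WT and at -0.48 in KO. HLA-C had 19.2 and 31.1 in WT and 129, 129 and 98.7 in KO (log2 fold change 2.24, SE 0.38, adjusted p = 0.00555), though reads of HLA genes can be split between near-identical copies. In the fit lacking WT replicate 2, edgeR called no gene of either list, 15 proteasome genes were lower and 3 higher at an unadjusted p below 0.05 (median -0.37), and 7 of 12 MHC genes were higher (median 1.596). The log2 fold changes of PSMD9, PSMB4, PSMB9, PSMB8 and HLA-C were then -0.92, -0.62, 4.33, 1.85 and 2.62. Of 7 SLFN genes 2 passed the filter on low counts and both rose. Of 15 SIGLEC genes 1 passed, SIGLEC6, and rose, and of 32 MAGE genes 4 passed and 1 rose. Genes at or near 0 in WT, such as SLFN13 and MAGED1, could pass only through other libraries. These counts are therefore not read as a result about a family.

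Genes of DNA replication fell more often than they rose, 19 against 3 of 50, with a median of -0.17. GINS2, a subunit of the replicative helicase, had 1783 and 2728 in WT and 956, 1004 and 1002 in KO (log2 fold change -1.19, SE 0.18, adjusted p = 0.00421). TYMS, thymidylate synthase, had 11102 and 14838 in WT and 5423, 5124 and 6174 in KO (log2 fold change -1.22, SE 0.21, adjusted p = 0.00555), and TK1, thymidine kinase, fell by 0.86. After correction 8 of the list fell, TK1 did not pass, and GINS2 and TYMS stood at -1.02 and -0.70. Mitotic genes moved both ways, 9 up and 10 down of 51 (6 and 5 after correction). NDC80 of the outer kinetochore fell by 0.87, its partner SPC24 fell by 1.10, and CENPF rose by 1.34, a gene that did not pass after correction. UBE2C had the largest log2 fold change of the list (5.38), whose median was -0.19. Cohesin and condensin, the rings that hold and fold chromosomes, rose in 11 of 23 genes with 1 fallen (median 0.59). NIPBL, the cohesin loader, had 1164 and 694 in WT and 2801, 2493 and 2517 in KO (log2 fold change 1.49, SE 0.31, adjusted p = 0.00891), PDS5B rose by 1.04, and NCAPH2 of condensin II fell by 0.92. After correction 3 cohesin and condensin genes rose (median 0.16). On omitting WT replicate 2, edgeR called UBE2C alone in these lists, 15 replication genes were lower at an unadjusted p below 0.05, 5 mitotic genes higher and 7 lower, and 8 cohesin and condensin genes higher (medians -0.10, -0.10 and 0.45). The values of GINS2, TYMS, NDC80, NIPBL and NCAPH2 were then -0.85, -0.99, -0.68, 1.16 and -0.76.

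Of 31 genes for kinases, phosphatases and readers of H2A.X, 15 rose and 3 fell, with a median of 0.55. ATM, the kinase that phosphorylates H2A.X at breaks, had 1376 and 706 in WT and 6069, 5400.4 and 5505 in KO (log2 fold change 2.44, SE 0.33, adjusted p = 0.00312), and it was called with any library left out and after correction (1.35). MDC1, which binds γ-H2A.X, had 1639.7 and 991 in WT and 2999, 2883 and 2972 in KO (log2 fold change 1.17, SE 0.24, adjusted p = 0.00915). TP53BP1, recruited downstream of it, rose by 1.26, and did not pass after correction. BABAM1, a subunit of the BRCA1-A complex, had 845 and 1478 in WT and 364, 417 and 429 in KO (log2 fold change -1.52, SE 0.27, adjusted p = 0.00626). The median transcript of the list has 5701 bases, and after correction 4 rose and 5 fell, with a median of 0.09. Against the BAZ1B experiment WT level the list stood at -0.55 in median log2 in H2A.X WT and at 0.04 in KO. ATM stood at 269 to 312 CPM in those WT cells, at 37.6 and 84.2 in H2A.X WT and at 342 to 389 in KO. In other repair lists the directions were mixed, with 7 up and 3 down of 32 in homologous recombination and the Fanconi anemia pathway, and 12 up and 8 down of 44 in end joining and excision repair, and after correction both lists had 2 up and 2 down. ERCC1, a nuclease subunit, fell by 1.06 and REV3L, a translesion polymerase, rose by 1.76. Both passed after correction (-1.07 and 0.81). After WT replicate 2 was dropped, ATM was the only gene called in these 3 lists (2.04), with 13, 5 and 7 genes higher and 2, 2 and 7 lower at an unadjusted p below 0.05. MDC1, BABAM1, ERCC1 and REV3L then stood at 0.85, -1.07, -0.89 and 1.35.

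Targets of p53, which is activated by DNA damage signals, were split, with 6 risen and 7 fallen of 25 (median 0.08). GADD45A had 472 and 536 in WT and 116, 164 and 139.8 in KO (log2 fold change -1.85, SE 0.26, adjusted p = 0.00354), and BTG2, an antiproliferative gene, had 1200.0 and 1162 in WT and 372, 421 and 367 in KO (log2 fold change -1.61, SE 0.29, adjusted p = 0.00654). FAS, the death receptor, rose by 1.40 and did not pass without WT replicate 1 (1.29). Among caspases and factors of apoptotic condensation 9 rose and 3 fell of 30. APAF1, the scaffold of the apoptosome, had 125 and 109 in WT and 443, 373 and 299 in KO (log2 fold change 1.66, SE 0.30, adjusted p = 0.0066), and LMNA, a lamin that caspases cleave, fell by 0.79. Of 18 BCL2 family genes 4 fell, the others did not pass, and after correction edgeR called none. After correction 2 p53 targets rose and 4 fell, and 6 and 3 of the caspase list. With WT replicate 2 left out, edgeR called no gene of the 3 lists. At an unadjusted p below 0.05, 5 p53 targets were then higher and 4 lower, 10 genes of the caspase list were higher and 1 lower, and GADD45A, BTG2, FAS, APAF1 and LMNA stood at -1.75, -1.63, 1.51, 1.57 and -0.62.

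Chromatin remodelers, the ATPases and partner subunits that move or exchange nucleosomes, rose in 27 of 39 genes (69.2%, median 1.09) and fell in 3. Against the BAZ1B experiment WT level the remodelers stood at -1.30 in median log2 in H2A.X WT and at -0.18 in KO. SRCAP, the ATPase that deposits H2A.Z, had 23.3 and 28.7 in WT and 136, 142 and 142 in KO (log2 fold change 2.43, SE 0.40, adjusted p = 0.00523), and EP400 had 708 and 464 in WT and 2001, 1579.5 and 1575 in KO (log2 fold change 1.55, SE 0.28, adjusted p = 0.00653). EP400 is the ATPase of the related TIP60 complex, and both genes stood well above WT in all KO libraries. CHD4 of the NuRD complex had 500.4 and 748 in WT and 315, 271 and 272 in KO (log2 fold change -1.12, SE 0.22, adjusted p = 0.00793), and INO80C, a small subunit of the INO80 complex, fell by 1.42. Histone methyltransferases and demethylases rose in 24 of 59 genes and fell in 3 (median 0.59). Against the same WT level they stood at -0.79 in H2A.X WT and at -0.13 in KO. KMT2A, a methyltransferase for H3K4, had 325 and 189 in WT and 1959, 1491 and 1529 in KO (log2 fold change 2.69, SE 0.47, adjusted p = 0.00608). NSD1 and KDM5B rose by 1.96 and 1.54, and SUV39H1, a methyltransferase for H3K9, fell by 0.69. After correction 15 remodelers rose and 4 fell (median 0.56), and 12 and 3 of the second list (median 0.15), with the named genes of both lists still called. When WT replicate 2 was left out, edgeR called no member of either list, with 27 and 20 higher and 2 and 4 lower at an unadjusted p below 0.05 and medians of 0.92 and 0.37. SRCAP, EP400, CHD4, INO80C and KMT2A then stood at 2.58, 1.28, -0.81, -1.26 and 2.35.

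Of 10 replication-independent histone genes, H2AFX included, 5 fell and the others did not pass (2 fell after correction). H2AFZ, which encodes H2A.Z, had 10124 and 16857 in WT and 7674, 7244 and 7455 in KO (log2 fold change -0.86, SE 0.21, adjusted p = 0.0133), and H1FX, a linker histone, fell by 1.52. Neither passed after correction. Replication-dependent histones, whose mRNAs lack a poly(A) tail and are poorly caught by oligo-dT selection, had 1 fallen of 52, the others not past the test and a median of -0.44, and after correction a median of 0.21. Other RNAs without a poly(A) tail showed 2 risen and 1 fallen of 30 (median -0.31, 0.38 after correction). With the omission of WT replicate 2, edgeR called none of these genes, 2 variants and 2 replication-dependent histones were lower at an unadjusted p below 0.05, the medians were -0.35, -0.41 and -0.28, and H2AFZ and H1FX stood at -0.44 and -1.32.

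Zinc finger genes of the ZNF series, many of them KRAB repressors, rose in 87 of 403 (21.6%) and fell in 21 (5.21%), beside 18.4% and 16.7% of all genes. ZNF581, a short member, had 1001 and 1349.7 in WT and 462, 529.7 and 468 in KO (log2 fold change -1.27, SE 0.18, adjusted p = 0.00377). After correction 53 rose and 31 fell (median 0.10), and without WT replicate 2 edgeR called 8 of 413, all higher, with a median of 0.22 and ZNF581 at -1.04. Splicing factors fell in 25 of 78 and rose in 4 (median -0.31). SNRPF, a core protein of the spliceosomal snRNPs, had 2875 and 6006 in WT and 1609.8, 1671 and 1724 in KO (log2 fold change -1.41, SE 0.32, adjusted p = 0.0111), in which WT replicate 2 held far more than WT replicate 1. PRPF8, at the heart of the spliceosome, had 5385 and 3222 in WT and 9629, 9121 and 8959 in KO (log2 fold change 1.10, SE 0.26, adjusted p = 0.0119). After correction 20 splicing genes were called lower, against 25 before, with a median of -0.21. Nucleoporins rose in 12 of 29 and fell in 4 (6 and 2 after correction), and NUP153 of the nuclear basket rose by 1.37 (0.86 after correction, where it passed). In the fit lacking WT replicate 2, edgeR called none of the splicing and nucleoporin genes, 11 splicing genes were lower and 10 nucleoporins higher at an unadjusted p below 0.05, and SNRPF, PRPF8 and NUP153 stood at -0.79, 0.78 and 1.01.

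Regulators of small GTPases and of movement along the cytoskeleton rose more often than they fell. Ras and Rap regulators rose in 21 of 29 (72.4%, median 1.48). Against the BAZ1B experiment WT level they stood at -1.63 in median log2 in H2A.X WT and at -0.15 in KO. Of the list 1 gene fell, SIPA1, a GAP for Rap, which had 671 and 753 in WT and 273, 385 and 372 in KO (log2 fold change -1.05, SE 0.19, adjusted p = 0.00695). Its relative SIPA1L1 had 379 and 261 in WT and 823, 1204 and 1124 in KO (log2 fold change 1.71, SE 0.22, adjusted p = 0.0025) and was called with any library left out. IQGAP1, a scaffold that binds Rac and Cdc42, had 885 and 483 in WT and 3346, 2927 and 2822 in KO (log2 fold change 2.15, SE 0.34, adjusted p = 0.00491). Kinesins, dyneins and myosins rose in 27 of 53 and fell in 5 (median 0.71). MYO1F, a myosin of myeloid cells, had 5.05 and 8.38 in WT and 320.4, 89.3 and 117 in KO (log2 fold change 4.70, SE 0.75, adjusted p = 0.00654), with KO replicate 1 well above the other KO libraries. After correction 14 Ras and Rap regulators and 17 motor genes rose and 2 and 2 fell, with medians of 0.92 and 0.39. On omitting WT replicate 2, edgeR called 2 Ras and Rap regulators, 18 of them and 20 motor genes were higher at an unadjusted p below 0.05, and the medians were 1.12 and 0.54. SIPA1, IQGAP1 and MYO1F then stood at -0.97, 1.78 and 5.08. Of 39 RAB GTPases, RAB4A included, 3 rose and 6 fell (5 and 7 after correction), with a median of 0.12, and without WT replicate 2 RAB4A was the only 1 called.

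In signaling, phosphoinositide kinases and phosphatases rose in 18 of 46 and fell in 1 (median 0.56). PIK3CG, the catalytic subunit of the PI3-kinase of leukocytes, had 0 and 2.39 in WT and 205, 95.3 and 95.4 in KO, a ratio of 120.3 with a counting interval of 33.1 to 997, and INPP5F, a phosphatase, had 339.7 and 288 in WT and 1037, 1444 and 1354 in KO (log2 fold change 2.02, SE 0.25, adjusted p = 0.00226). Of the MAP kinase cascade 10 rose and 3 fell of 38. KSR1, a scaffold of the cascade, had 2215 and 1427 in WT and 6044, 6167 and 6159 in KO (log2 fold change 1.75, SE 0.30, adjusted p = 0.00563), and MAP2K2, the kinase MEK2, fell by 1.11 (not called after correction). The SMAD, TGF-beta and BMP pathway rose in 10 of 27 and fell in 1 (median 0.71). NEO1, a receptor that also takes part in BMP signaling, had 3.03 and 4.79 in WT and 668, 245 and 163 in KO (log2 fold change 6.49, SE 1.03, adjusted p = 0.00491), and ACVR1B, an activin receptor, rose by 1.42. ID1, a direct target of SMAD1 and its relatives, had 178 and 300.3 in WT and 56.6, 129.6 and 109 in KO (log2 fold change -1.28, SE 0.40, adjusted p = 0.0325). ID1 did not pass after correction or without KO replicate 1 (-0.999) or 3 (-1.36). After correction 8, 4 and 4 members of the 3 lists rose and 3, 1 and 3 fell. After WT replicate 2 was dropped, edgeR called MAP3K5 of the MAP kinase list and SMAD1 of the SMAD list, with 14, 6 and 9 higher at an unadjusted p below 0.05, and INPP5F, KSR1, NEO1, ACVR1B and ID1 stood at 1.91, 1.47, 6.83, 1.21 and -0.85.

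Cytokine receptors, JAK and STAT genes rose in 16 of 33 and fell in 1 (median 0.57, 11 risen after correction). The gene that fell was EPOR, the erythropoietin receptor, at 3060.1 and 2797 in WT and 1259, 2055 and 1433 in KO (log2 fold change -0.89, SE 0.25, adjusted p = 0.0217). STAT3 had 1298 and 1013 in WT and 2176, 2172 and 2098 in KO (log2 fold change 0.89, SE 0.17, adjusted p = 0.00784) and STAT6 1009.9 and 759.8 in WT and 2344, 1797 and 1837 in KO (log2 fold change 1.17, SE 0.23, adjusted p = 0.00804), while SOCS7, an inhibitor, rose by 1.45. EPOR was not called after correction, nor without WT replicate 1 (-0.82), KO replicate 1 (-0.75) or KO replicate 3 (-0.82), while both STAT genes were called after correction. In the NF-kB pathway 6 of 26 rose and 2 fell (3 and 1 after correction). REL, its c-Rel subunit, had 27.3 and 10.8 in WT and 284, 282 and 244 in KO (log2 fold change 3.80, SE 0.63, adjusted p = 0.0055). Interferon-stimulated genes rose in 10 of 31 and fell in 2, and after correction in 11 and 1 (medians 0.62 and 0.64). EIF2AK2, the kinase PKR that senses double-stranded RNA, had 517 and 392.4 in WT and 1434, 1282 and 1308 in KO (log2 fold change 1.56, SE 0.25, adjusted p = 0.00491). SAMD9 rose by 2.02 (not called after correction, 1.42) and IRF1, a transcription factor of the response, fell by 1.37. TRIM and CARD proteins, several of them antiviral, rose in 15 of 45 and fell in 3 (9 and 4 after correction), with TRIM38 at 1.83 and TRIM13 at -0.82. With WT replicate 2 left out, edgeR called 2 genes of the TRIM and CARD list and none of the other 3 lists, 13, 3, 9 and 11 members of the 4 lists were higher at an unadjusted p below 0.05, the medians were 0.58, 0.13, 0.59 and 0.42, and EPOR, STAT3, STAT6, REL, EIF2AK2 and IRF1 stood at -0.95, 0.73, 0.98, 3.30, 1.38 and -1.29.

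Many genes of the red cell surface fell. Of 32 channels, carriers and blood group antigens 13 fell and 3 rose, with a median of -0.73 (9 fallen after correction, median -0.48). ACKR1, which carries the Duffy antigen, had 417 and 552 in WT and 33.8, 116 and 107 in KO (log2 fold change -2.50, SE 0.42, adjusted p = 0.00555). CA3, a carbonic anhydrase, was 1 of the risen ones, at 4.04 and 3.59 in WT and 197, 634 and 634 in KO (log2 fold change 6.95, SE 1.17, adjusted p = 0.00555). Membrane skeleton genes were split, 7 up and 8 down of 28 (2 and 5 after correction). TMOD1, which caps the actin of the skeleton, had 2231 and 2415 in WT and 1042, 1246 and 1104 in KO (log2 fold change -1.04, SE 0.20, adjusted p = 0.00757), while SPTAN1, the nonerythroid spectrin, had 8.09 and 5.98 in WT and 579, 191 and 132 in KO (log2 fold change 5.38, SE 0.77, adjusted p = 0.00377), with KO replicate 1 above the others. Iron genes fell in 11 of 27 and rose in 3, and after correction 6 fell and 0 rose. GLRX5, needed for iron-sulfur clusters, had 4796 and 7795 in WT and 1833, 2582 and 2437 in KO (log2 fold change -1.46, SE 0.29, adjusted p = 0.00835). AHSP, the chaperone of alpha globin, fell by 1.62. It is not in the iron list and was counted with the surface list, though it is not a surface protein. When WT replicate 2 was left out, edgeR called 1 gene of the surface list, AQP1, 14 surface, 8 skeleton and 7 iron genes were lower at an unadjusted p below 0.05, and ACKR1, CA3, TMOD1, SPTAN1 and GLRX5 stood at -2.28, 6.87, -0.98, 5.20 and -1.07. The summed erythroid markers moved with this list, and their part in it was not tested.

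Lists of stress and stimulus genes held calls in both directions. In the ATF4 response 7 of 37 genes fell and 3 rose (median -0.36), and after correction 4 fell and 2 rose (median -0.13). ATF4 itself had 6947 and 8378 in WT and 2809.6, 3423 and 3451 in KO (log2 fold change -1.25, SE 0.21, adjusted p = 0.00552), ATF5 1246 and 1198 in WT and 291, 347 and 399.7 in KO (log2 fold change -1.82, SE 0.27, adjusted p = 0.00413) and ATF3 103 and 141 in WT and 1.69, 18.9 and 14.8 in KO (log2 fold change -3.36, SE 0.79, adjusted p = 0.0126), in which KO replicate 1 was lowest. Immediate early genes, switched on within minutes of a stimulus, had 3 risen and 4 fallen of 24 (4 and 3 after correction). FOS had 171 and 160.3 in WT and 1391, 920.2 and 1173 in KO (log2 fold change 2.81, SE 0.36, adjusted p = 0.0025) and EGR1 1261 and 1226 in WT and 12316, 7452 and 8437 in KO (log2 fold change 2.92, SE 0.53, adjusted p = 0.0066), whereas JUND had 4274 and 6675 in WT and 1037, 1627 and 1543 in KO (log2 fold change -1.97, SE 0.35, adjusted p = 0.0066) and did not pass after correction (-1.14). FOS and EGR1 passed after correction (3.18 and 2.98), but FOS at 3.27 to 3.46 CPM and EGR1 at 32.5 to 35.9 in the WT cells of the BAZ1B experiment lay nearer to H2A.X WT (8.55 and 10.5 CPM for FOS, 65.4 and 77.1 for EGR1) than to KO. Glucocorticoid response genes, with dexamethasone in the medium of both groups, had 2 risen and 2 fallen of 17 (1 and 2 after correction), with ANXA1 at 38.4 and 44.3 in WT and 205, 326 and 483 in KO (log2 fold change 3.03, SE 0.55, adjusted p = 0.00685) and TSC22D3, which encodes GILZ, at 3508 and 4691 in WT and 1552, 1388 and 1604 in KO (log2 fold change -1.44, SE 0.29, adjusted p = 0.00835). Chaperones had 5 risen and 7 fallen of 46 (3 and 1 after correction), with HSPA2, a chaperone of the HSP70 family, at 1.75 and the small heat shock protein HSPB1 at -1.23, which did not pass after correction (-0.28). Of 35 antioxidant genes 12 fell, with a median of -0.39, and after correction 2 fell and the median was 0.02. Of 40 autophagy genes 6 fell and 1 rose, with ATG4D at -1.46, and after correction 5 fell and 0 rose. With the omission of WT replicate 2, TSC22D1 of the glucocorticoid list was the only gene of these lists called. At an unadjusted p below 0.05, 7 ATF4 response, 4 immediate early, 2 glucocorticoid, 3 chaperone, 6 antioxidant and 8 autophagy genes were then lower and 1, 4, 2, 5, 0 and 0 higher, and ATF4, ATF5, FOS, EGR1, JUND, ANXA1 and TSC22D3 stood at -1.11, -1.85, 2.76, 2.90, -1.61, 3.13 and -1.21.

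In metabolism, glycolysis and pentose phosphate genes had 4 risen and 5 fallen of 32. PKM, pyruvate kinase, had 382 and 431 in WT and 4474, 4732 and 2844 in KO (log2 fold change 3.30, SE 0.81, adjusted p = 0.0139), and LDHB, a lactate dehydrogenase, had 1939 and 4592 in WT and 1372, 1304 and 1333 in KO (log2 fold change -1.29, SE 0.34, adjusted p = 0.0173), with WT replicate 2 far above WT replicate 1. LDHB did not pass after correction, and PKM did not pass without WT replicate 1 (3.22). Of 33 genes of the tricarboxylic acid cycle and malic enzymes 8 fell and 1 rose. The risen one was ME3, the mitochondrial malic enzyme, at 2.02 and 1.20 in WT and 76.1, 114 and 109 in KO, a ratio of 60.8 with a counting interval of 20.6 to 296, and it was called with any library left out. Cholesterol and fatty acid synthesis rose in 11 of 37 and fell in 4. ACACA, acetyl-CoA carboxylase, had 1034 and 654 in WT and 2008, 2192 and 2220.4 in KO (log2 fold change 1.34, SE 0.22, adjusted p = 0.00537). ELOVL1, a fatty acid elongase, had 2164 and 2152 in WT and 1103, 1192 and 1094 in KO (log2 fold change -0.93, SE 0.13, adjusted p = 0.00377). ACACA and ELOVL1 did not pass after correction (0.52 and -0.36). Lysosomal proteases had 7 risen and 4 fallen of 33, with CST7, a cystatin, at 10.1 and 8.38 in WT and 145, 97.9 and 93.7 in KO (log2 fold change 3.58, SE 0.52, adjusted p = 0.00401) and CTSD, cathepsin D, fallen by 1.13. After correction 3, 4, 4 and 10 genes of the 4 lists rose and 2, 2 and 2 of the glycolysis, tricarboxylic acid and lysosomal lists fell. In the fit lacking WT replicate 2, edgeR called PFKFB2, ME3, ELOVL1 and CTSS in these lists, 4, 1, 5 and 4 genes were higher at an unadjusted p below 0.05, and PKM, LDHB, ACACA and CST7 stood at 3.39, -0.54, 1.05 and 3.45.

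**Figure D4:**
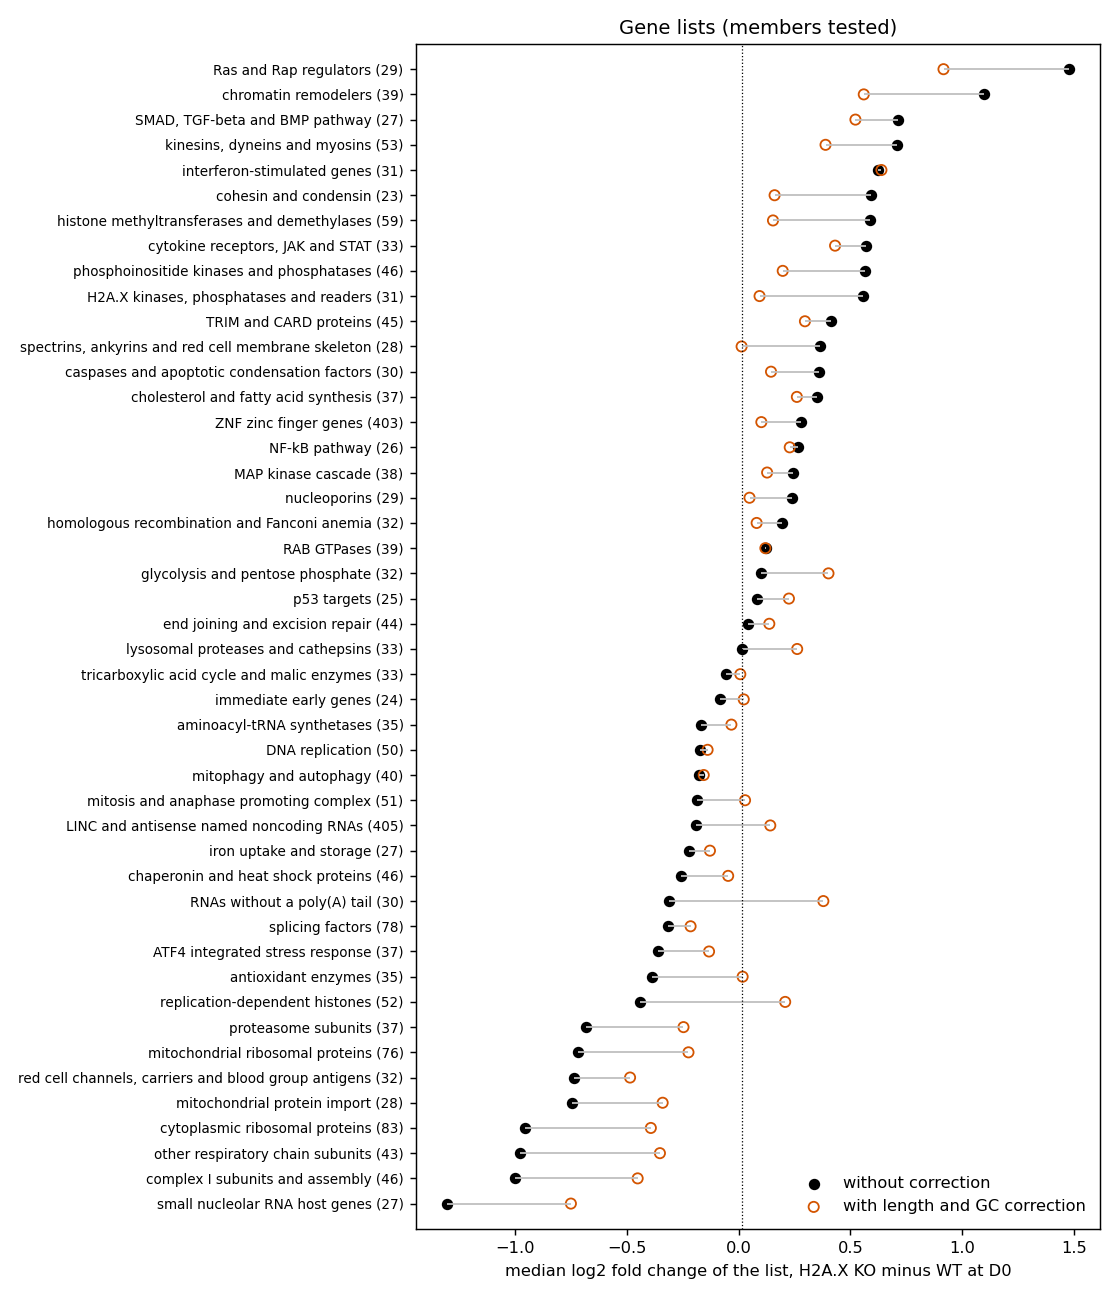
Median log2 fold change of H2A.X KO minus WT at D0 (horizontal axis) in each gene list shown (vertical axis, with the number of members tested), without correction (filled black) and with correction for length and GC content (open orange), and the median of all tested genes as a dotted line. Ras and Rap regulators lie highest at 1.48 and small nucleolar RNA host genes lowest at -1.30, and the correction moves most lists toward the dotted line at 0.01.

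Among noncoding RNAs with LINC or antisense names, 26 of 405 rose and 41 fell, and after correction 41 rose and 16 fell, so the balance turned with the correction (medians -0.19 and 0.14). LINC01215 had 48.5 and 28.7 in WT and 287, 455 and 383 in KO (log2 fold change 3.27, SE 0.41, adjusted p = 0.00226), and EPB41L4A-AS1 had 673 and 854 in WT and 265, 337 and 326 in KO (log2 fold change -1.30, SE 0.23, adjusted p = 0.0065). On omitting WT replicate 2, edgeR called none of 470, with 26 higher and 44 lower at an unadjusted p below 0.05, and LINC01215 and EPB41L4A-AS1 stood at 2.95 and -1.12.

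Markers of other blood cells were read as whole lists. The 26 markers of mast cells, basophils and eosinophils summed to 265 to 295 CPM in WT and 481 to 908 in KO. Of the 13 that passed the filter 9 rose, with a median of 5.06, or 2.39 with genes at 0 in WT set at their bound, and 9 stood at 0 in all D0 libraries, among them the defining markers FCER1A, CMA1 and CLC. CPA3, the mast cell carboxypeptidase, had no read in WT and 85.4, 233 and 261 normalized counts in KO, at least 58.3-fold higher. EPX, eosinophil peroxidase, had 2.02 and 2.39 in WT and 109, 137 and 190.0 in KO (log2 fold change 5.97, SE 0.56, adjusted p = 0.00226), and SIGLEC6, a lectin of mast cells and other cells, had 30.3 and 21.5 in WT and 2192, 509 and 828 in KO (log2 fold change 5.49, SE 0.79, adjusted p = 0.00387). In the BAZ1B experiment WT cells EPX stood at 14.8 to 24.6 CPM, SIGLEC6 at 44.9 to 53.8 and CPA3 at 3.85 to 4.54, above H2A.X WT in each case. The 16 monocyte and macrophage markers summed to 1.85 to 4.02 CPM in WT and 35.9 to 81.1 in KO, with all 4 tested ones risen and 8 at 0, CD163, CSF1R, S100A8 and C1QA among them. Markers at or near 0 in WT, such as CPA3 and CTSS, could pass the filter on low counts only through other libraries. Counts of risen markers among those tested are therefore not read as a result about these cell types. Neutrophil progenitor markers summed to 2.10 to 3.65 CPM in WT and 4.80 to 10.9 in KO, with MPO and ELANE at 0. Megakaryocyte markers summed to 293 to 331 CPM in WT and 197 to 264 in KO, although ITGA2B rose by 2.39. T and NK cell, B cell and stem cell markers stayed below 5 CPM in sum in every library. After WT replicate 2 was dropped, CPA3 and CTSS were the only markers called, 8 mast cell and 3 monocyte markers were higher at an unadjusted p below 0.05, and EPX, SIGLEC6 and ITGA2B stood at 6.08, 5.27 and 2.31. The part of these cell types in the differences at D0 was not tested.

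By position, 1 autosome stood out after correction for length and GC content. Of 159 tested and annotated genes on chromosome 18, 52 (32.7%) fell and 6 (3.77%) rose, against 9.55% and 11.8% of all annotated genes, with a median log2 fold change of -0.33 (-0.16 before correction). The medians of the other autosomes lay between -0.00128 and 0.13. Relative to the BAZ1B experiment WT cells, the corrected chromosome 18 medians were 0.10 and 0.11 in the WT libraries and -0.40, -0.44 and -0.20 in KO replicates 1, 2 and 3, with KO replicate 3 nearest to WT. At D6 KO replicates 1, 2 and 3 stood at -0.35, -0.39 and 0.00, and the WT libraries at 0.13 and 0.20. When the chromosome was divided into 5 blocks of about equal gene number, a division made after the pattern was seen, the corrected medians along it were -0.28, -0.08, -0.49, -0.47 and -0.25, with 11, 8, 14, 13 and 6 genes fallen. Without WT replicate 1 or 2 the corrected median was -0.31 or -0.36.

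**Figure D5:**
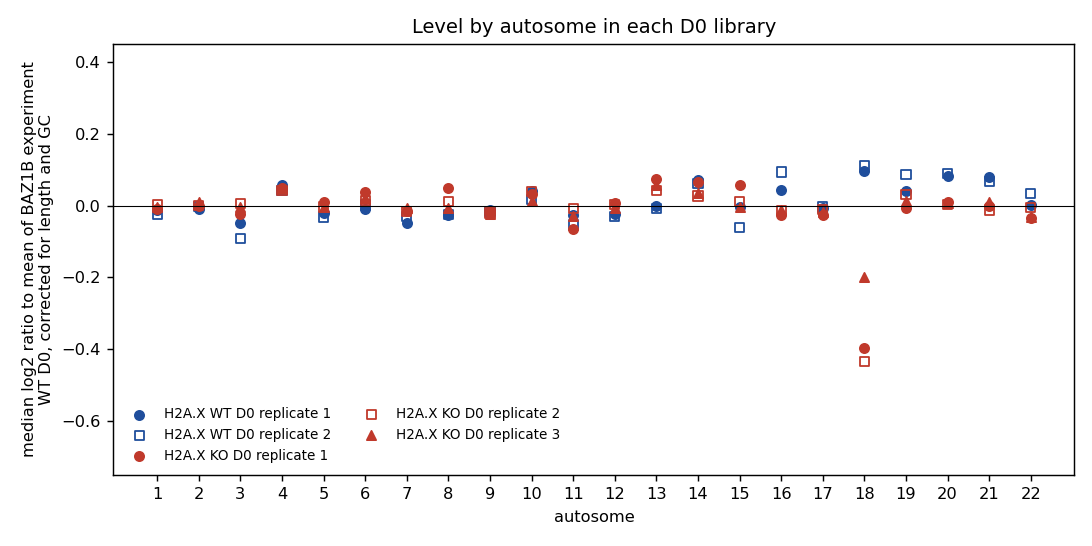
Median log2 ratio of each D0 library to the mean of the BAZ1B experiment's WT D0 libraries after correction for length and GC content (vertical axis), by autosome (horizontal axis), for WT (blue) and KO (red) libraries. On chromosome 18 the KO libraries stand at -0.40, -0.44 and -0.20 and the WT libraries at 0.10 and 0.11, and the medians on the other autosomes lie between -0.09 and 0.09.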

How the data were processed

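H2A.X was studied by RNA-Seq in 10 libraries of HUDEP-2 cells, 5 of them at D0. Per the labels, poly(A) RNA was selected on oligo-dT beads and primed with random hexamers, and the submitters' processing notes name STAR 2.7.0f, Subread 1.6.4 with featureCounts, DESeq2 1.22.1 and the hg38 build. The sources differ on the kit and the read length, and strand settings are not given in the sources used here, so overlapping and antisense genes stay uncertain. The authors deposited raw counts per gene, 1 column per library. The BAZ1B counts came in a separate table and served for levels alone.

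Counts were analysed with edgeR 4.0.16 (R 4.3.3) with TMM factors and filterByExpr (minimum count 10, minimum total 15), 1 coefficient per genotype and day, and Benjamini-Hochberg adjustment. Normalized counts are counts divided by effective library size and multiplied by its mean. SE is the log2 fold change divided by the square root of F. Spearman's rho is across genes. The correction was a spline (5 degrees of freedom) of each library's log counts on log2 length and GC content of the reference transcript, fitted on genes at a mean CPM of at least 1. Annotation matched 36434 of 59087 gene names, and 756 by an older name. DESeq2 1.42.0 was an alternative. The fits were tested on simulated data.

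Named genes were H2AFX, all DEGs, up to 10 lower genes of largest change (mean normalized count of at least 50, KO and WT apart) and, per gene list, up to 3 members a direction with the smallest p, of which some were left out. E2F1, CCND2, PHOSPHO1, CEP55, CREB3L2 and PDGFC were chosen after their values were seen. The comparison and the gene lists were chosen with earlier results of these data known. Globin, heme and GATA genes are not described here, and some results are not reported here.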

Additional observations from a re-analysis of the deposited data

Results flagged for a closer look

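For 18 of the genes named in the report the KO minus WT difference at D6 differed from that at D0 (interaction of genotype and day in edgeR's quasi-likelihood test, adjusted over all genes tested, which called 177 genes in all). That fit treats D0 and D6 libraries as independent, while libraries of the same genotype and number deviated together across days. With a replicate block within each genotype, which leaves 3 residual degrees of freedom, 552 genes were called, 174 of the 177 among them in the same direction, and all 18 genes below were called in the same direction. The interaction value is the D6 minus the D0 log2 fold change. FOS and EGR1, immediate early genes, were above WT in KO at D0 and below WT at D6. FOS had normalized counts of 60.5 and 159 in WT and 7.35, 10.5 and 5.79 in KO at D6, and its interaction was -6.56 (adjusted p = 0.00136). EGR1 had 66.3 and 48.3 in WT and 4.59, 35.2 and 2.90 in KO at D6 (-4.94, adjusted p = 0.0227).

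Several genes that were low in WT at D0 and high in KO were low in KO at D6. ANXA1 had 765 and 295 in WT and 5.51, 16.2 and 18.3 in KO at D6 (-8.34, adjusted p = 0.00224), and CST7 had 189.6 and 78.7 in WT and 0.918, 0.9504 and 2.90 in KO (-9.89, adjusted p = 0.00136). SIGLEC6 had 147 and 73.4 in WT and 45.9, 14.3 and 16.4 in KO at D6 (-7.61, adjusted p = 0.00887) and PSMB9 had 8.00 and 1.79 in WT and 2.75, 1.90 and 0.965 in KO (-5.48, adjusted p = 0.0442). SPTAN1 (-7.11, adjusted p = 0.0128) and LINC01215 (-4.16, adjusted p = 0.0126) went the same way. MYO1F had no read in KO at D6, so its interaction value of -10.70 (adjusted p = 0.0223) depends on the prior count of the fit and is not a measured size.

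Other differences seen at D0 were small at D6. PLTP had 364 and 320.3 in WT and 373, 306 and 435 in KO at D6 (-1.93, adjusted p = 0.00782), and LMBRD2 (-1.58, adjusted p = 0.0232) and STS (-1.90, adjusted p = 0.0242) also lost most of their D0 difference. AQP1 had 2719.8 and 3600.4 in WT and 5227, 6370.4 and 4054 in KO at D6 (4.86, adjusted p = 0.00374) and TSC22D1 had 3519 and 4005 in WT and 3934, 3988 and 3423 in KO (1.604, adjusted p = 0.0102). The KO libraries then lay above WT for AQP1 and overlapped WT for TSC22D1. PHOSPHO1 (2.22, adjusted p = 0.0273), TMOD1 (1.47, adjusted p = 0.0386) and BTG2 (2.04, adjusted p = 0.0464) were lower in KO at D0 and not at D6. AC026403.1 was low in all D6 libraries, at 11.4 and 21.5 in WT and 2.75, 8.55 and 3.86 in KO (4.93, adjusted p = 0.016). The D6 KO libraries include 1 whose name lacks the Redo mark, and what part the mark has in these differences was not tested.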

How the results depend on the processing

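No named gene changed direction in any setting tried. Of 134 named genes other than H2AFX, all stayed called with DESeq2, upper-quartile factors, no filter on low counts, the D0 libraries alone and a replicate block, 116 of 131 annotated ones after the length and GC correction, and 35 without WT replicate 2. The block is given as a check only, since WT and KO libraries with the same number shared little beyond the number (correlation of their deviations 0.0385 for number 1 and 0.0604 for number 2). Within a genotype, D0 and D6 libraries of the same number did deviate together (0.233 to 0.48 in KO, 0.226 in WT), and a block for them, chosen after seeing the data, called 552 genes for the interaction of genotype and day, against 177.

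The counts of genes depended on settings far more than directions did. With 1 library left out at a time, genes called higher ranged from 51 to 2894, genes called lower from 26 to 2748, higher DEGs from 2 to 44 and lower DEGs from 0 to 5. The length and GC correction gave 1416 higher and 1148 lower genes, and with a replicate block 1871 and 1443 (38 and 21 DEGs). Together with leaving out WT replicate 1 or 2, an alternative chosen after seeing the data, it gave 997 or 43 higher genes, 1075 or 24 lower genes, 1 or 2 higher DEGs and 0 lower DEGs. DESeq2 gave 532 and 98 DEGs, no filter 730 and 175, the D0 libraries alone 1 and 0, and the replicate block 124 and 44, while DESeq2 called 2804 genes higher and 2419 lower at an adjusted p below 0.05. With upper-quartile factors, which moved the median log2 fold change by -0.0775, 45.7% of called genes were higher, against 52.3% with TMM factors. The cutoff on the unadjusted p, chosen after seeing the data, gave 426 higher and 88 lower DEGs.

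The log2 fold change of H2AFX was -0.69 after correction, -0.87 with correction and block, and -0.73 or -0.63 with correction and without WT replicate 1 or 2, none of them called. It ranged from -1.20 to -1.70 with 1 library left out, was -1.78 with the block, and its adjusted p over all alternatives ran from 8.94e-11 to 0.558. The rho of fold change with transcript length was 0.0146 after correction and 0.458 to 0.555 with 1 library left out. The chromosome 18 median was -0.16 without correction, -0.33 with it, -0.43 with correction and block, and -0.31 or -0.36 with correction and without WT replicate 1 or 2. The last 3 of these values come from alternatives chosen after seeing the data. DESeq2, also chosen then, called 1318 genes for the Redo mark at D6, against 276. Of 64 gene lists 28 had a median below 0, and 18 with correction and block. The cause of these differences was not tested. With 2 WT libraries the spread of WT cells rests on 1 difference at D0, which limits every call.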
